A study of Mus musculus with 9 samples.

Results

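Bone morphogenetic proteins (BMPs) signal from cell to cell in the developing limb, and the binding of HOXA13 and HOXD13 was described around 9 genes of this pathway. They were the ligands Bmp2, Bmp4, Bmp5 and Bmp7, the receptors Bmpr1a, Bmpr1b and Bmpr2, and the inhibitory Smads Smad6 and Smad7. Peak intervals of all lists were merged wherever they overlapped. The leading summit of a merged site, the strongest main summit among the lists, gave its position. A merged site was assigned to a gene when a summit of any list lay in the gene body or within 100 kb on either side. This gave 366 of 200092 merged sites, of which 272 were called in at least 1 wild-type (wt) list.

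BMP ligands are secreted dimers that bring together type I and type II receptors, both of them serine/threonine kinases. The type II receptor activates the type I receptor, which phosphorylates SMAD1, SMAD5 and SMAD9, and these enter the nucleus with SMAD4. Smad6 and Smad7 are induced by the signal and oppose it, SMAD6 mainly on the BMP branch and SMAD7 on both the BMP and the TGF-β branch. In the distal limb, BMP signalling is known for its part in the death of interdigital cells, in the outgrowth of the digits and in the onset of cartilage formation, and BMPR1B is the type I receptor best known from the digit condensations. HOXA13 and HOXD13 are the homeodomain factors of the most distal limb segment.

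Binding was measured by CUT&RUN, in which an antibody tethers micrococcal nuclease to a chromatin protein and the released fragments are sequenced. Distal forelimb cells of B6CBAF1 mouse embryos were used, and the wt embryos, taken at E12.5, gave 3 libraries with each antibody. The II1TDOM 542 mutant line (542), 1 founder line with a single copy of the limb enhancer II1, an HBB promoter and lacZ inserted into T-DOM, a regulatory domain that flanks the HoxD cluster on chromosome 2, gave 2 libraries with the HOXA13 antibody, from E12.5, and 1 with the HOXD13 antibody whose title says E11.5, although the growth protocol names the same collection day for all samples. The 542 reads were mapped on the mutant genome and the wt reads on mm10, so genotype and mapping genome cannot be told apart, and since positions on chromosome 2 shift past the insertion, Bmp2 and Bmp7 were described from the wt lists alone.

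Each list gave a fold enrichment per summit, the pileup of read ends divided by the local background expected from the same library. Depth recovered from these values ran from 36.9 to 65.5 M read ends per library, and the lists held 23939 to 117719 intervals. Both wt replicates 3 stood apart from the other libraries of their antibody. Across the 13979 sites called in all 6 wt lists, log2 fold enrichment correlated at r = 0.87 between HOXA13 replicates 1 and 2. Either of them correlated at 0.52 with replicate 3. For HOXD13 the values were 0.69 between replicates 1 and 2, and 0.51 and 0.48 with replicate 3. Between antibodies, the replicates 3 correlated at 0.64, and HOXA13 replicate 1 with HOXD13 replicate 2 at 0.66 (description over sites of shared libraries). The study lists longer reads for both replicates 3 than for the other wt libraries, and the effect of this was not tested. HOXD13 replicate 3 is a library that its label calls a reanalysis. Values without the replicates 3 are therefore given beside the results that rest on them. By the study's methods, tissue was pooled from several embryos and different pools served for different experiments, so p-values measure the spread between pooled libraries.

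HOX13 proteins prefer an AT-rich site ending in ATAAA or GTAAA. The letters searched were CCNATAAA, CCNGTAAA, CTNATAAA and CTNGTAAA on both strands, in the 50 bases around the leading summit. Of the 49 sites called in all 6 wt lists, 12 held a match, and the 11 at genes other than Smad7 are printed to show what lay under the summits. Each is named by its gene and its distance from the 5′ end of the gene in the direction of transcription, sequence is the plus strand of GRCm38 (the assembly of mm10), 5′ to 3′, and capitals mark the match.

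Bmp4 +89.9 kb, chr14:46300722-46300771: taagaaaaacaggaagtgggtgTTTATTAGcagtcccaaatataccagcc
Bmp4 +62.6 kb, chr14:46328089-46328138: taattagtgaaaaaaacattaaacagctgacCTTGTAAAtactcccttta
Bmp4 +5.6 kb, chr14:46385066-46385115: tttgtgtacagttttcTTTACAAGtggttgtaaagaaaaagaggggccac
Bmp7 +72.6 kb, chr2:172867649-172867698: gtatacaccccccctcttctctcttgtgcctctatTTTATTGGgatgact
Bmpr1b +126 kb, chr3:142043250-142043299: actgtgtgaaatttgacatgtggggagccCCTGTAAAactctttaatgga
Bmpr1b +84.5 kb, chr3:142084901-142084950: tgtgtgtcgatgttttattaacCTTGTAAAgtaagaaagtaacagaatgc
Bmpr1b +55.0 kb, chr3:142114421-142114470: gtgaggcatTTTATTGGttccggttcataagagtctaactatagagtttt
Bmpr1b −45.5 kb, chr3:142214947-142214996: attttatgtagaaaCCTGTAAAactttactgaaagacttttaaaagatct
Bmpr1b −53.5 kb, chr3:142222950-142222999: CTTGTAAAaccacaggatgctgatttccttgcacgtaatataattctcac
Bmpr1b −86.2 kb, chr3:142255553-142255602: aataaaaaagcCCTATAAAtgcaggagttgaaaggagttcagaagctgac
Smad6 +145 kb, chr9:63876552-63876601: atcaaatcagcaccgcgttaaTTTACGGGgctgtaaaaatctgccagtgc

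The matches lay between 22 bases before and 13 bases after the leading summit. Those at Bmp4 +89.9 kb, Bmp4 +5.6 kb, Bmp7 +72.6 kb, Bmpr1b +55.0 kb and Smad6 +145 kb are on the minus strand and so begin with TTTA as printed. CTTGTAAA was the form at Bmp4 +62.6 kb, Bmp4 +5.6 kb, Bmpr1b +84.5 kb and Bmpr1b −53.5 kb.

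Most of the strongest sites did not hold these letters. The site with the highest median percentile of fold enrichment at Bmp7 is the one at +72.6 kb printed above, whereas those at Bmp2, Bmp4, Bmp5, Bmpr1a, Bmpr1b and Smad6 had no match in 50 bases. The sites printed next are those of Bmp2, Bmpr1a, Bmpr1b and Smad6, followed by the Smad6 promoter site, each over 120 bases.

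Bmp2 +14.4 kb, chr2:133566476-133566595: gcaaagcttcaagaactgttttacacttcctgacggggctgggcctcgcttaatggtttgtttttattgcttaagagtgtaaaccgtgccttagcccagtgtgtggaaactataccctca
Bmpr1a −5.3 kb, chr14:34508550-34508669: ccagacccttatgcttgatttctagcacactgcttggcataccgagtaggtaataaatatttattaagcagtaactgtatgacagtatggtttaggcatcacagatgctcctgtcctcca
Bmpr1b −69.2 kb, chr3:142238520-142238639: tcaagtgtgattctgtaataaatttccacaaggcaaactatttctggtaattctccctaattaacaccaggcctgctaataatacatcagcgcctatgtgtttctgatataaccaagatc
Smad6 +41.6 kb, chr9:63980406-63980525: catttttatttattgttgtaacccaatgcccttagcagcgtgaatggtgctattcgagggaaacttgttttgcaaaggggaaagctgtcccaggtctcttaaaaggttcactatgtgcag
Smad6 −0.4 kb, chr9:64022385-64022504: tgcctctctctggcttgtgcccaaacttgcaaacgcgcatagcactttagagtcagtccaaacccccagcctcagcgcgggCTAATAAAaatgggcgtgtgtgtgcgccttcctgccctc

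Only the Smad6 promoter window held a match, CTAATAAA, 24 bases from its leading summit. None of the 5 had a match within the 50 bases around the summit.

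HOX13 binding around these genes was mostly intronic or distal and was mostly shared by both antibodies. 49 of the 272 wt sites (18.01%) were called in all 6 wt lists, against 10.5% of all 133586 merged sites with a wt call. Both antibodies called 153 sites (56.2%, against 43.6% of all), HOXA13 alone called 81 (29.8%, against 37.1%) and HOXD13 alone 38 (14.0%, against 19.3%). 102 sites were in 1 wt list only (37.5%, against 49.3%). Leaving out both replicates 3, 63 sites were called in all 4 remaining lists. Of all 115973 merged sites called in at least 1 of these 4 lists, 18816 were in all 4 (16.2%). The matching share around these genes is not given, so the 63 sites are not compared with it. Relative to the gene itself, 4 of the 49 sites were within 1 kb of an annotated start, 21 were intronic, 24 lay outside the gene and 0 were exonic. Classed over any gene, 51.0% of the 49 were intronic (38.5% of all 13979 sites in all 6 wt lists), 32.7% intergenic (32.4% of all) and 16.3% at promoters (26.8% of all).

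**Figure D1:**
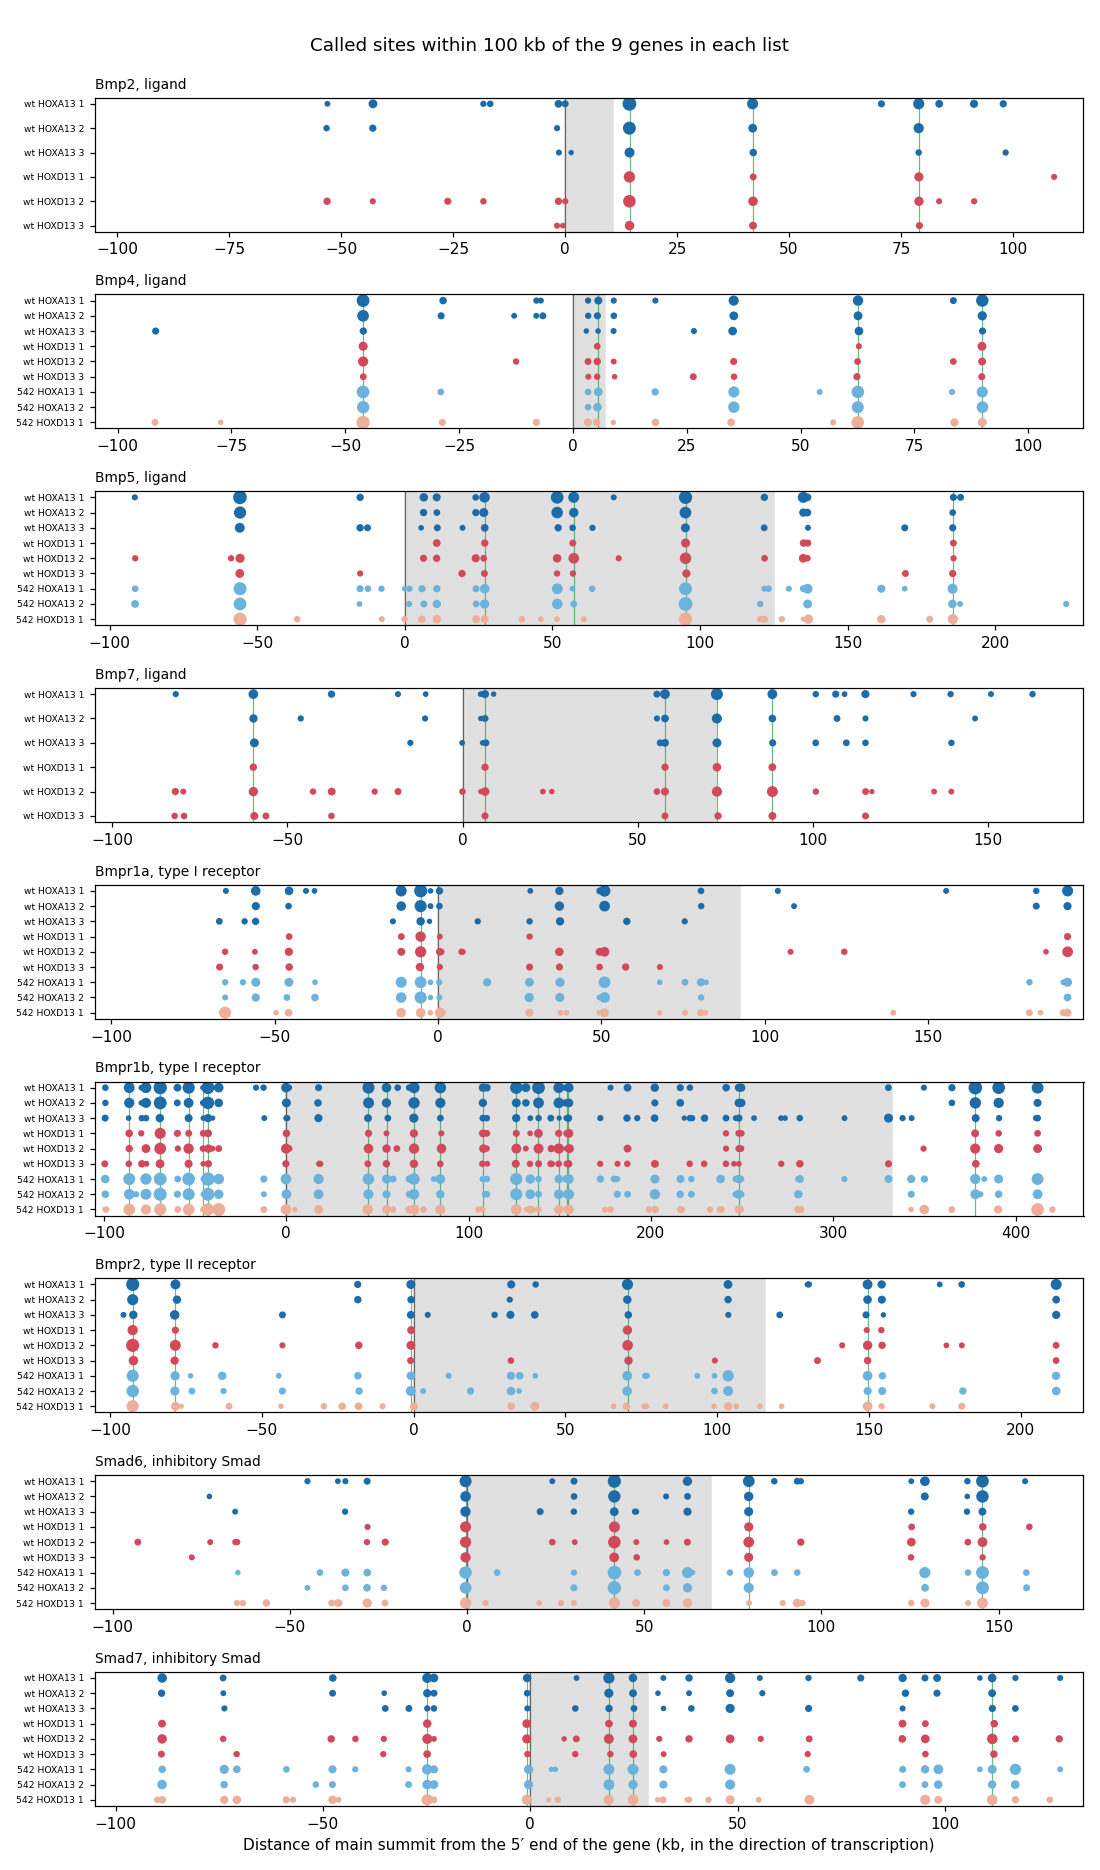
Called sites at the 9 genes. Each row is 1 list (blue, wt HOXA13; red, wt HOXD13; light blue, 542 HOXA13; light red, 542 HOXD13), each point the main summit of a called interval at its distance in kb from the 5′ end of the gene, with an area in proportion to fold enrichment. Grey marks the gene body and green lines the sites called in all 6 wt lists; Bmpr1b holds 18 of these 49 lines and Bmpr1a holds 1.

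The number of sites per list was highest at Bmpr1b, which also has the longest gene body (332 kb). wt HOXA13 lists held 41.7 ± 8.74 sites there (SD, n = 3) and wt HOXD13 lists 32.3 ± 6.03 (SD, n = 3). The next gene, Smad7, had 18 ± 3.46 and 14 ± 7.21 sites (SD, n = 3 each). Mean counts were higher for HOXA13 than for HOXD13 at each of the 9 genes, but the ranges of the 3 libraries overlapped or touched at all 9, and HOXD13 replicate 1, the shortest list, had the lowest or tied lowest HOXD13 count at each gene.

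**Figure D2:**
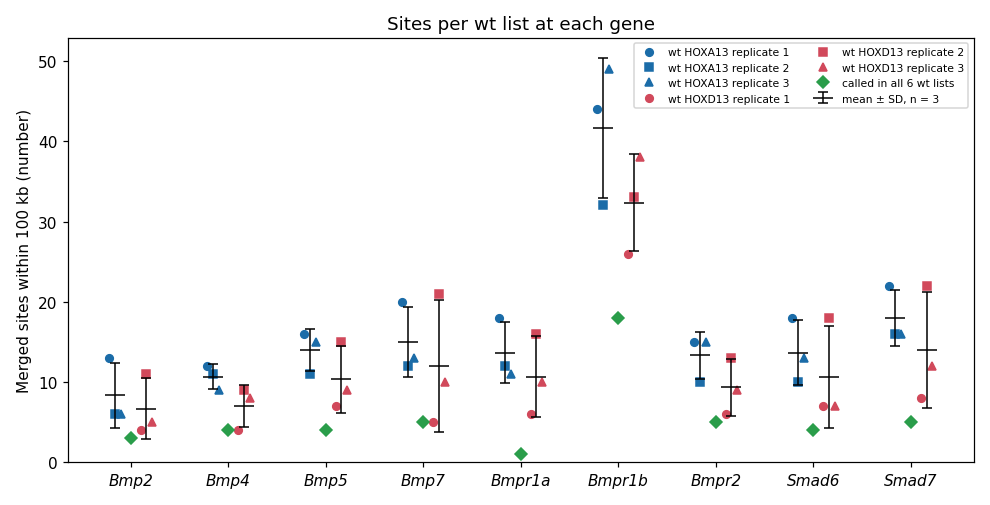
Number of merged sites within 100 kb of each gene in each wt list (points, shape by replicate), with the mean ± SD of 3 libraries per antibody (bars) and the number called in all 6 wt lists (green diamonds). The antibodies overlap or touch at every gene, and Bmpr1b has the most sites in every list.

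Among the ligands, no promoter was called in all 6 wt lists. Bmp2 (chr2:133552159-133562885, plus strand), a ligand of the interdigital tissue and the distal mesenchyme, had a site 0.007 kb from its start in 2 wt lists, with fold enrichments of 3.48 in HOXA13 replicate 1 and 2.79 in HOXD13 replicate 2. The pileups there were 41 (95% Poisson interval 29.4 to 55.6) and 35 read ends (24.4 to 48.7). These intervals treat read ends as independent counts. Both ends of a fragment and kept duplicates are not independent, so the counting error may be wider, and the spread between libraries is not covered. A further site 0.526 kb upstream was called in HOXD13 replicate 3 alone, at 2.32. The strong Bmp2 sites lay downstream of the gene. At +14.4 kb (chr2:133565851-133567527), 3.65 kb past the 3′ end, fold enrichment was 13.6, 12.0 and 7.20 in HOXA13 replicates 1, 2 and 3 and 9.31, 11.3 and 6.47 in HOXD13 replicates 1, 2 and 3. Its median percentile within the lists was 98.4, the highest of the 49 sites. At +78.9 kb, values of 8.92, 7.51 and 3.07 for HOXA13 and 5.99, 6.20 and 3.72 for HOXD13 were measured. At both sites the replicate 3 was the lowest of its antibody, and the antibodies overlapped.

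Bmp4 (chr14:46383520-46390669, minus strand), expressed in the limb mesenchyme and the apical ectodermal ridge, had no site within 1 kb of a start in any of the 9 lists. A distal site 46.1 kb upstream (chr14:46436255-46437375) was in all 9 lists. It reached 11.8, 9.73 and 3.83 in wt HOXA13, 5.86, 7.43 and 3.37 in wt HOXD13, 11.7 and 11.1 in 542 HOXA13 and 12.53 in 542 HOXD13. The replicates 3 were the lowest values of their antibody in wt. The 542 HOXA13 values lay within the range of wt HOXA13. Relative to the median of each list, the HOXA13 log2 difference (wt minus 542) was −0.12 ± 0.29 (SE). The single 542 HOXD13 value lay above every wt HOXD13 value, but its title gives another stage. Of the 4 Bmp4 sites called in all 6 wt lists, 3 held the consensus. The farthest of them, at +89.9 kb, gave 11.02, 6.18 and 3.61 in wt HOXA13 and 5.76, 4.47 and 3.64 in wt HOXD13. The intronic one, at +5.6 kb, was weak throughout, with 4.57, 3.65 and 2.28 in wt HOXA13 and 3.27, 3.91 and 2.98 in wt HOXD13.

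Bmp5 (chr9:75775364-75900310, plus strand), a ligand known from skeletal condensations, had no promoter call in wt. A site 0.058 kb upstream of its start was called in 1 HOXA13 list and the HOXD13 list of 542, at 2.15 and 2.92. Within its introns, the site at +95.1 kb (chr9:75869878-75871261) was in all 9 lists, at 12.6, 9.83 and 5.74 in wt HOXA13, 5.89, 9.51 and 4.82 in wt HOXD13, 12.1 and 13.5 in 542 HOXA13 and 12.7 in 542 HOXD13. Of the 542 HOXA13 values, 12.1 lay below and 13.5 above the highest wt HOXA13 value. Relative to the median of each list, the HOXA13 log2 difference (wt minus 542) was −0.06 ± 0.24 (SE). A second intronic site, at +57.3 kb, was at 8.64, 6.30 and 3.13 in wt HOXA13 and 3.43, 8.18 and 2.93 in wt HOXD13, and is taken up again in the comparison with 542. A site 55.8 kb upstream, chosen after its values were seen, was missing only from the shortest wt list, HOXD13 replicate 1. It reached 13.4, 10.7 and 6.94 in wt HOXA13 and 5.95 and 5.61 in the other HOXD13 replicates.

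Bmp7 (chr2:172868012-172940321, minus strand), expressed in the mesenchyme and ectoderm of the limb, had a promoter site 0.023 kb upstream of its start in 2 wt lists, at 2.42 in HOXA13 replicate 3 and 3.11 in HOXD13 replicate 2. Its leading site, at +72.6 kb, lay 338 bp past the 3′ end (chr2:172867062-172868130). Fold enrichment there was 10.2, 7.28 and 5.72 for HOXA13 and 5.23, 7.41 and 3.90 for HOXD13. A site 59.7 kb upstream fell in the promoter of Rae1, a nuclear export factor gene, at 6.71, 4.97 and 5.66 for HOXA13 and 3.96, 6.27 and 4.50 for HOXD13. Fold enrichment there varied less between libraries than at +72.6 kb, and the antibodies overlapped at both sites.

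The receptor genes differed widely. Bmpr1a (chr14:34410734-34503341, minus strand), the broadly expressed type I receptor, had 32 wt sites but only 1 in all 6 wt lists. That site, 5.27 kb upstream of the 5′ end (chr14:34508136-34509337), was strong: 12.2, 10.6 and 5.14 in wt HOXA13, 7.72, 9.17 and 5.10 in wt HOXD13, 9.95 and 10.7 in 542 HOXA13 and 6.54 in 542 HOXD13. Its nearest protein-coding gene in the annotation is 9230112D13Rik. The Bmpr1a promoter was called in 5 of 6 wt lists, with 3.90 and 3.18 in HOXA13 replicates 1 and 2, no call in replicate 3, and 2.50, 4.34 and 2.82 in HOXD13; a second call near a start, at +1.15 kb, was in HOXD13 replicate 2 alone. In 542 it gave 2.91 and 2.57 for HOXA13 and 7.46 for HOXD13. An intronic site at +37.4 kb was likewise in 5 of 6 wt lists, without HOXD13 replicate 1. Without the replicates 3, 5 Bmpr1a sites were in all 4 lists.

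Bmpr1b (chr3:141837136-142169425, minus strand), the type I receptor of the digit condensations, carried 18 of the 49 sites, 11 of them in its introns, 6 outside the gene and 1 at the promoter. Without the replicates 3, 22 of its sites were in all 4 lists. The promoter site, 0.167 kb upstream of the 5′ end (chr3:142168980-142170101), was in all 9 lists, with 6.70, 5.66 and 3.07 in wt HOXA13, 4.12, 7.16 and 3.79 in wt HOXD13, 8.18 and 6.79 in 542 HOXA13 and 8.03 in 542 HOXD13. At 2 internal starts, calls were fewer: the site at +187 kb was in 4 wt lists, between 3.01 and 4.49, and the one at +238 kb in 542 lists only. A further call 0.587 kb into the gene was in HOXA13 replicates 2 and 3, at 2.28 and 2.25. The strongest Bmpr1b site lay 69.2 kb upstream (chr3:142237791-142239491), where its nearest coding gene is Pdlim5. Pileups there were 727, 396 and 118 read ends in wt HOXA13, 114, 326 and 93 in wt HOXD13, 1190 and 715 in 542 HOXA13 and 1091 in 542 HOXD13. The corresponding fold enrichments were 12.8, 11.9 and 5.17, then 8.87, 10.1 and 5.63, then 11.8 and 12.4, and 10.6. So the pileups spread far more than the fold enrichments, and the replicates 3 were the lowest of their antibody on both measures.

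Inside Bmpr1b, the site at +70.02 kb (chr3:142098680-142099899) led the intronic sites. It was at 8.81, 9.23 and 6.04 in wt HOXA13, 4.76, 7.70 and 5.15 in wt HOXD13, 9.62 and 8.17 in 542 HOXA13 and 7.81 in 542 HOXD13. The weakest of the 18 sites, 45.5 kb upstream, ranged only from 2.07 to 3.36 over the 6 wt lists, although it held CCTGTAAA near its summit. In all, 6 of the 18 held the consensus in 50 bases. For 12 of the 18, Bmpr1b was the nearest protein-coding gene.

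Bmpr2 (chr1:59763400-59879014, plus strand), the type II receptor of the pathway, had 5 sites in all 6 wt lists, among them sites at the promoters of the neighbouring genes Nop58 and Fam117b. The Nop58 promoter, 78.7 kb upstream, gave 7.07, 5.02 and 6.52 in wt HOXA13 and 3.68, 8.64 and 4.92 in wt HOXD13. The promoter site of Bmpr2 itself, 0.905 kb upstream (chr1:59761951-59763906), was at 5.95, 3.92 and 4.46 in wt HOXA13, 4.51, 5.70 and 3.61 in wt HOXD13, 5.34 and 7.16 in 542 HOXA13 and 4.57 in 542 HOXD13. An intronic site at +70.5 kb gave 8.91, 5.21 and 4.05 in wt HOXA13 and 6.18, 8.07 and 5.09 in wt HOXD13. The antibodies overlapped at these 3 sites in fold enrichment. Relative to the median of each list, HOXD13 was higher at +70.5 kb without overlap, and all 5 Bmpr2 sites had a negative log2 difference (HOXA13 minus HOXD13, median −0.26), none of them past the limma threshold.

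Both inhibitory Smads were called at their promoters in all 9 lists. Smad6 (chr9:63953076-64022059, minus strand) had the highest fold enrichment at its promoter among the 9 genes in every list. 0.386 kb upstream of its start (chr9:64021758-64023365), fold enrichment was 10.5, 8.09 and 7.66 in wt HOXA13, 8.72, 9.04 and 7.50 in wt HOXD13, 11.2 and 10.0 in 542 HOXA13 and 9.31 in 542 HOXD13. The replicates 3 were again the lowest of their antibody. The intronic site at +41.6 kb (chr9:63979801-63981119) reached 12.4, 10.9 and 5.55 in wt HOXA13, 8.63, 11.3 and 6.83 in wt HOXD13, 13.2 and 12.8 in 542 HOXA13 and 8.85 in 542 HOXD13. Downstream of the gene, the site at +79.5 kb gave 9.78, 6.42 and 5.89 for wt HOXA13 and 6.03, 8.32 and 6.01 for wt HOXD13, and 2.50 in the 542 HOXD13 list, where 542 HOXA13 gave 7.95 and 7.36.

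Smad7, on chromosome 18, was lower at its promoter. 0.819 kb upstream of the start, values of 5.19, 3.20 and 2.71 were found in wt HOXA13, 5.58, 6.03 and 3.02 in wt HOXD13, 6.08 and 5.95 in 542 HOXA13 and 7.48 in 542 HOXD13. A site 24.8 kb upstream was at 7.21, 4.92 and 2.92 in wt HOXA13 and 5.23, 7.20 and 4.26 in wt HOXD13. The intronic site at +18.9 kb was at 9.12, 5.95 and 3.93 in wt HOXA13 and 4.19, 7.02 and 3.03 in wt HOXD13. The antibodies overlapped at each of these 3 sites in fold enrichment.

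**Figure D3:**
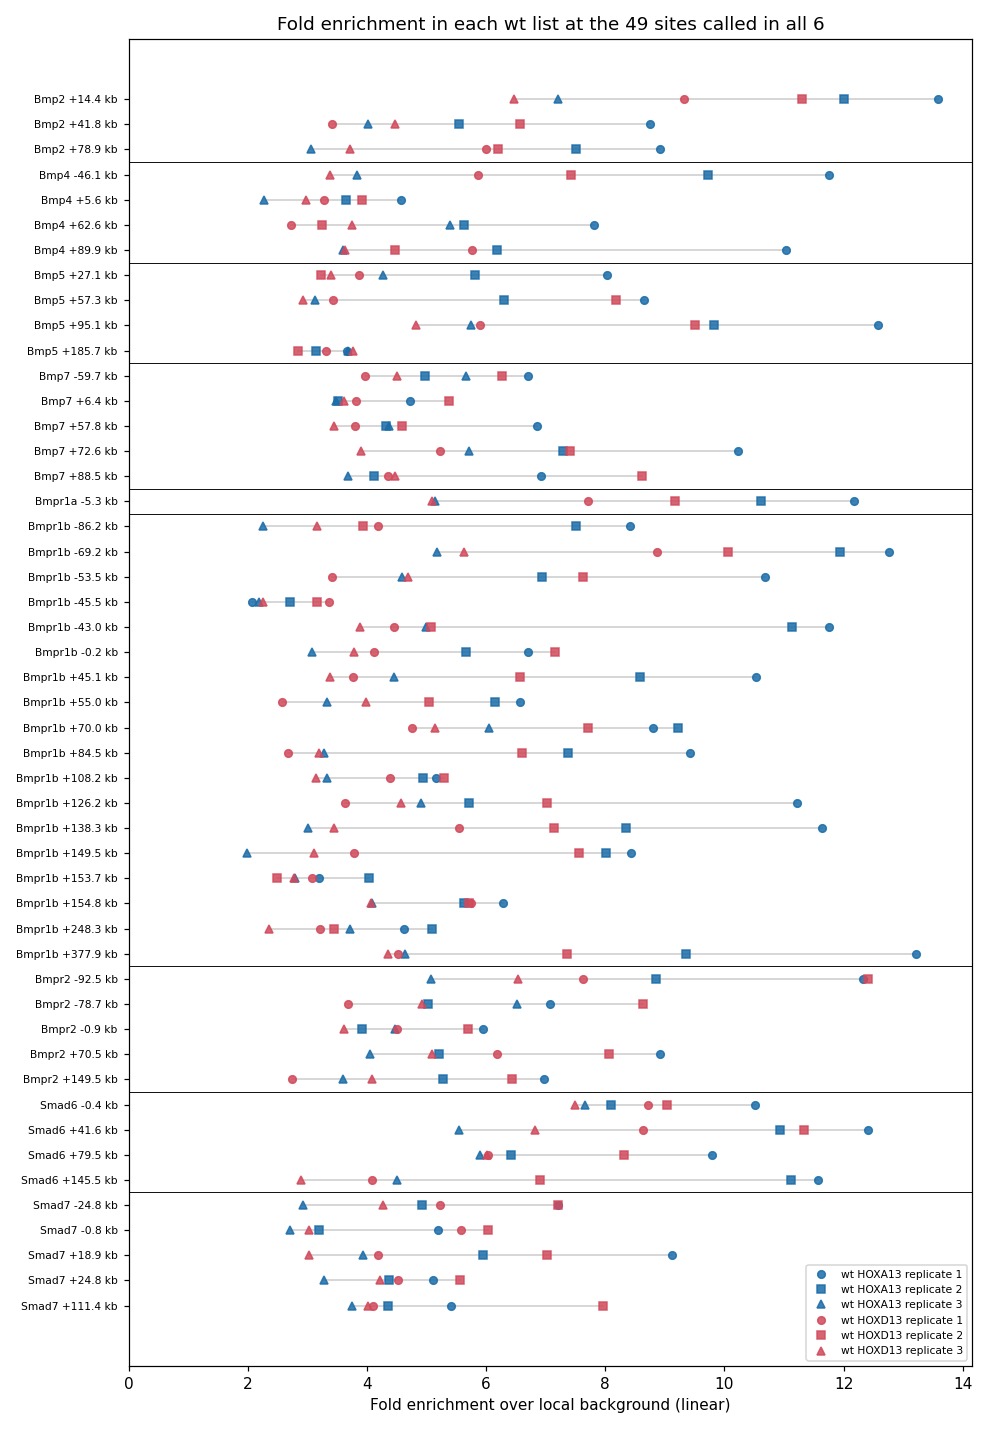
Fold enrichment over local background (linear axis) at the 49 sites called in all 6 wt lists, 1 row per site, ordered by gene and distance from its 5′ end. Blue marks HOXA13 and red HOXD13, with shape for the replicate; triangles (replicates 3) sit at or near the low end of most rows, and Bmp2 +14.4 kb and Smad6 −0.4 kb stay above 6 in every library.

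Over the 9 genes, 4 had a promoter site in all 6 wt lists (44.4%), namely Bmpr1b, Bmpr2, Smad6 and Smad7, against 19.4% of the 21755 protein-coding genes. None of the 4 ligands was among them. With HOXA13 replicate 3 left out the count was 5, with Bmpr1a added. Of the 49 sites, 8 lay at a promoter of any gene and had a median GC content of 59.8% in 200 bases, against 42.5% for 25 in introns and 40.2% for 16 between genes. The consensus was held in 50 bases by 0 of the 8 promoter sites, 6 of the 25 intronic sites and 6 of the 16 intergenic sites. Over all sites called in all 6 wt lists these shares were 5.18%, 19.0% and 18.6%. For the 49 together the share was 24.5% (exact Clopper-Pearson 95% interval 13.3 to 38.9), beside 15.1% of all 13953 such sites with sequence, which lies inside that interval. The shorter core, ATAAA or GTAAA, was in 25 of the 49 windows (51.0%) and in 44.8% of all.

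The density of sites called in all 6 wt lists was 18.5 per Mb over the 9 windows, while the median protein-coding gene had 4.90 per Mb. At least 1 such site was found at all 9 genes, as at 70.6% of protein-coding genes. Bmpr1b, with 33.8 per Mb, stood above 99.2% of protein-coding genes, Smad7 with 21.9 above 94.7% and Bmp4 with 19.3 above 91.97%. Bmpr1a, with 3.42 per Mb, was the only one of the 9 below the median. These ranks are descriptions: neighbouring genes share sites, and for 34 of the 49 sites the gene described was also the nearest coding gene.

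**Figure D4:**
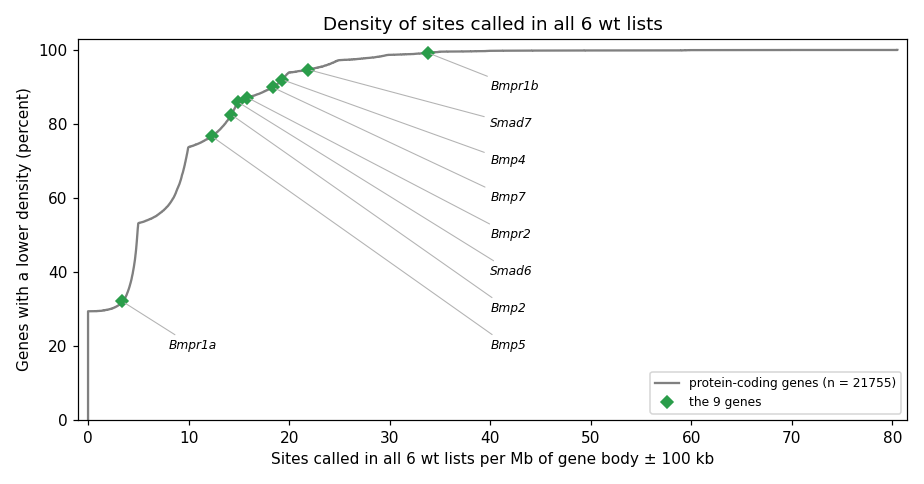
Sites called in all 6 wt lists per Mb of gene body and 100 kb flanks (x axis) against the percent of 21755 protein-coding genes with a lower density (y axis). The grey line is all genes and green diamonds the 9 genes; 8 of them lie above the median of 4.90 per Mb and Bmpr1a lies below it.

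Whether the antibodies differed in signal was tested at the sites called in all 6 wt lists, on log2 fold enrichment centred on each library's median, with limma over all 13979 sites. 0 of the 49 sites passed an adjusted p of 0.05, where 0.00715% of all sites (1 of 13979) did; at an unadjusted p below 0.05 there were 10 of 49, against 13.5% of all. The lowest p was at the Smad7 promoter, with a log2 difference of −0.71 ± 0.24 (SE; HOXA13 minus HOXD13, limma adjusted p = 0.245). Relative to the median of each list, HOXA13 stood at 0.625, 0.504 and 0.608 there and HOXD13 at 1.24, 0.930 and 0.729, without overlap. Next came the site 43.0 kb upstream of Bmpr1b, at 0.65 ± 0.23 (SE, limma adjusted p = 0.261), with fold enrichments of 11.8, 11.1 and 5.00 for HOXA13 and 4.46, 5.07 and 3.88 for HOXD13. The site 24.8 kb upstream of Smad7 followed, at −0.53 ± 0.21 (SE, limma adjusted p = 0.306).

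On the centred scale, all HOXA13 values were below all HOXD13 values at 10 of the 49 sites (20.4%, against 10.9% of all sites), and above them at 2 (4.08%, against 8.86%). 4 of the 10 were Smad7 sites, and Smad7 held 5 of the 49. With replicates 1 and 2 alone, HOXA13 was below at 22 of 63 sites (34.9%, against 29.6%) and above at 15 (23.8%, against 26.1%), and 6 of the 22 were at Smad7. Smad7 held 7 of the 63 sites. Of the 15 sites with higher HOXA13, 8 were at Bmpr1b, which held 22 of the 63 sites and had 3 with lower HOXA13. Without centring the median difference over all sites moved from −0.01 to 0.31, a shift common to all sites, and with it the number of the 49 with higher HOXA13 from 21 to 39. The 3 sites of lowest p kept their signs, at −0.39, 0.97 and −0.21.

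Calls in every list of 1 antibody and none of the other were rare. Just 2 sites were in all 3 HOXA13 lists and no HOXD13 list (0.735%, against 1.35% of all), and 0 were in all 3 HOXD13 lists and no HOXA13 list (against 0.0307%). The first, in a Bmpr2 intron at +104 kb, had HOXA13 values of 5.48, 3.98 and 2.74 with pileups of 39, 23 and 17 read ends, and the 542 HOXD13 list did call it, at 4.93. The second, 2.25 kb upstream of Bmpr1a, was near the limit of calling at 2.26, 2.52 and 2.14, and was called at 2.26 in the 542 HOXD13 list. Without the replicates 3, where fewer lists have to agree, 16 sites were in both HOXA13 lists and neither HOXD13 list. No share over all sites was taken for this rule, so the count is not read as a trait of these genes.

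Calls in 542 embryos were about as frequent at these sites as over all sites. Of the 41 sites called in all 6 wt lists at the 7 genes off chromosome 2, 38 were in all 9 lists (92.7%, against 92.9% of all such sites). The exceptions were Bmp5 +57.3 kb and a site at +378 kb of Bmpr1b, both without a call in the 542 HOXD13 list, and Bmpr1b +108 kb, missing from 1 of the 542 HOXA13 lists. A call does not mean an equal level, and Bmpr1b +138 kb, whose HOXA13 values are given with the next comparison, was among the 38. Conversely, 94 of 314 sites off chromosome 2 were in 542 lists only (29.9%, against 34.3% of all). Of the 314, 52 were in the 542 HOXD13 list alone, the longest list (16.6%, against 19.4% of all).

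The HOXA13 signal of wt and 542 was compared at sites called in all 5 HOXA13 lists. 0 of 66 sites passed an adjusted p of 0.05 in limma, and 0% of all 27116 sites did, while 7 of the 66 and 13.6% of all had an unadjusted p below 0.05. The 2 sites of lowest p were both higher in wt, and their sequences are printed over 120 bases around the leading summit of the merged site. Neither window held the consensus.

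Bmpr1b +138 kb, chr3:142031014-142031133: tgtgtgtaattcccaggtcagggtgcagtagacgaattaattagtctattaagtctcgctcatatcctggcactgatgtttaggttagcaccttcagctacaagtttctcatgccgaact
Bmp5 +57.3 kb, chr9:75832564-75832683: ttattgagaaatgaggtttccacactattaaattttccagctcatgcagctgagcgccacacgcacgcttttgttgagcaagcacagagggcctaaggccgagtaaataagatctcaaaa

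At Bmpr1b +138 kb, an intronic site, fold enrichment was 11.6, 8.35 and 3.01 in wt HOXA13 and 3.12 and 3.35 in 542 HOXA13. wt replicates 1 and 2 stood well above 542, while replicate 3 lay below both. Relative to the list medians the values were 1.73, 1.68 and 0.783 in wt and 0.424 and 0.510 in 542, without overlap. The log2 difference was 1.499 ± 0.33 (SE, limma adjusted p = 0.117). For HOXD13, wt gave 5.54, 7.13 and 3.45 and the single 542 library 2.80, below all of them. That library is titled E11.5 and wt was taken at E12.5, so genotype and stage cannot be told apart there.

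At Bmp5 +57.3 kb the wt HOXA13 values were 8.64, 6.30 and 3.13 and the 542 values 2.21 and 3.34. They come from main summits that did not coincide within the merged site. Those of wt HOXA13 lay at 75832604, 75832620 and 75832219, and those of 542 HOXA13 at 75832146 and 75832623. The printed window thus holds neither the summit of wt replicate 3 nor that of 542 replicate 1. Relative to the list medians these were 1.28, 1.27 and 0.815 against 0.301 and 0.509. The log2 difference was 1.49 ± 0.29 (SE, limma adjusted p = 0.110), and the 542 HOXD13 list had no call. The third site by p, Bmpr2 +104 kb, went the other way, at 5.48, 3.98 and 2.74 in wt and 9.26 and 7.07 in 542 (log2 difference −0.59 ± 0.22, SE, limma adjusted p = 0.273).

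**Figure D5:**
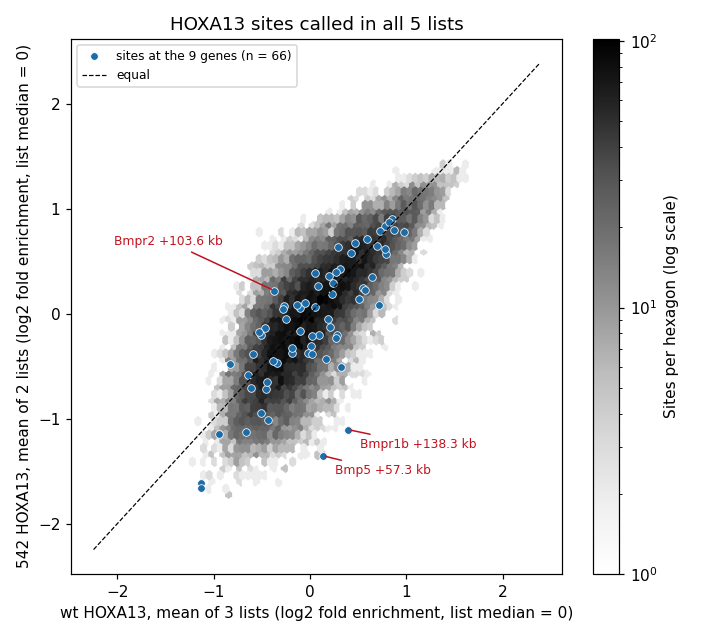
Mean log2 fold enrichment, relative to each list's median, of 3 wt (x axis) and 2 542 (y axis) HOXA13 lists at sites called in all 5. Grey hexagons count all 27116 sites (log colour scale), blue points are the 66 sites at the 7 genes off chromosome 2, and the dashed line marks equality; Bmpr1b +138.3 kb and Bmp5 +57.3 kb lie furthest below the line among the blue points.

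This comparison turned on wt replicate 3. Without it, 6 of 82 sites passed, all 6 higher in wt, where 5.53% of 36011 sites passed in either direction and 3.67% in this one. 5 of the 6 were at Bmpr1b, which held 27 of the 82 sites, and 1 was at Bmp5. Bmpr1b +138 kb then differed by 1.88 ± 0.21 (SE, limma adjusted p = 0.00263) and Bmp5 +57.3 kb by 1.71 ± 0.25 (SE, limma adjusted p = 0.0069). The other 4, at +391, +250, +378 and +84.5 kb of Bmpr1b, differed by 1.21, 0.95, 0.86 and 0.77 on the log2 scale (limma adjusted p = 0.0106, 0.0264, 0.0286 and 0.0475). With the replicate number as a block on the same 4 libraries, 0 of 36011 sites passed and all 6 calls were lost, with limma adjusted p from 0.0517 to 0.0740. At Bmpr1b as a whole, 18 of the 27 differences were positive and 9 negative, with a median of 0.16 against 0.07 for all sites. The 82 sites together had the same median of 0.16, with 57 positive and 25 negative. Medians were higher at Bmpr1a (0.30), Bmp5 (0.27) and Bmpr2 (0.23), and lower at Smad6 (0.115), Smad7 (0.02) and Bmp4 (−0.01). The share of positive differences over all 36011 sites was not taken. Genotype, mapping genome and library cannot be told apart here.

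The pathway beyond the 9 genes was covered by 27 further genes. Of these, 23 had at least 1 site in all 6 wt lists within 100 kb, and 8 (29.6%) had one at the promoter, against 19.4% of protein-coding genes. The 8 were the ligand gene Gdf5, a marker of forming joints, the target Id3, the pseudoreceptor Bambi, the antagonist Crim1, the signal transducers Smad5, Smad9 and Smad4, and the receptor Acvr2b. Densities ranged from 0 to 29.4 per Mb with a median of 10.8, and 21 of the 27 were above the median coding gene. Gdf5 was highest, with 6 sites in a window of 204 kb. Bmp6, Smurf1 and Id2 were among those with 0, although 21 to 26 sites in each of their windows were called in at least 1 wt list.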

How the data were processed

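The starting point was the peak list of each CUT&RUN library as deposited by the authors, and the titles gave the genotype, stage and antibody of each. According to the study's methods, the authors trimmed adapters with Cutadapt, mapped reads with bowtie2 (wt on mm10, 542 on the mutant genome), kept a mapping quality of at least 30 and called peaks with MACS2 from all read ends, without a control library. Cells were pooled from embryos. Duplicates, where kept, raise pileups. In the deposited columns, fold enrichment is the ratio between pileup and local background. The −log10 p-value and its q-value counterpart are the authors' Poisson test of that pileup. The deposited score restates the −log10 q as a whole number.

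Summits sharing an interval were collapsed to it, the one of highest −log10 p being its main summit, and intervals of all lists overlapping by at least 1 bp were merged. Pileup and depth were recovered from fold enrichment and −log10 p; at least 99.98% of pileups came out whole within 0.01 read ends. Annotation was GENCODE M21 basic on GRCm38. Promoter sites had the leading summit within 1000 bp of a start of a protein-coding transcript. Signal was tested with limma 3.58.1 in R 4.3.3 on log2 fold enrichment without a pseudocount, since only sites called in every library were fitted, with Benjamini-Hochberg adjustment over all fitted sites, and the procedure was tested on simulated data. Other steps used Python 3.11.15 with pandas 2.3.3, pysam 0.24.0 and matplotlib 3.10.9.

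The 9 genes, the further pathway genes and the tests were chosen with earlier results of these data known. Sites were named by rule: promoter sites, the 2 other sites per gene called in most wt lists (ties by median percentile of fold enrichment), the 3 of lowest p in each limma fit, and sites called by every library of 1 wt antibody alone; sites with the consensus were added as a class. Some sites and genes that the rule names are not reported here. Alternatives were a fold enrichment or −log10 q of at least 5, summits within 100 bp, wt lists merged alone, flanks of 50 kb, promoters of 500 or 2500 bp, a motif window of 100 bp, other scalings, pileups, each replicate left out and a replicate block.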

Additional observations from a re-analysis of the deposited data

How the results depend on the processing

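The count of 49 sites in all 6 wt lists stayed within 1.5 times under flanks of 50 kb (37), wt lists merged alone (49), both replicates 3 left out (63) and single replicates left out (49 to 60). It was 7 at a fold enrichment of at least 5, 29 at a −log10 q of at least 5 and 19 when main summits had to lie within 100 bp. The 4 genes with a promoter site became 1 at a fold enrichment of at least 5 and 2 within 500 bp, and 4 to 5 with single replicates left out. These counts are not set beside shares over all sites or genes under the same settings. Whether the differences from those shares hold under them cannot be told. Sites of HOXA13 alone (2) were 5 with summits within 100 bp, 16 without both replicates 3 and 2 to 12 without single replicates. Sites of HOXD13 alone (0) were 1 with summits within 100 bp and 0 to 1 without single replicates. The consensus share of 24.5% was 40.8% in 100 bases and 51.0% for the core, where any window holds more matches, and 21.8% to 24.5% without single replicates.

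Between antibodies, 1 of 13979 sites passed; the number was 0 without centring and after quantile normalization, 9 on pileups scaled to depth, 234 without both replicates 3 and 0 to 414 without single replicates, 414 being without HOXA13 replicate 3. No site at the 9 genes passed under any of these. For wt against 542, 0 sites passed, 1 with summits within 100 bp, and 0 to 1991 without single libraries, 1991 being without wt HOXA13 replicate 3. Replicate numbers did not pair all the libraries: deviations of same-numbered wt libraries correlated at −0.02, 0.23 and 0.54 for replicates 1, 2 and 3. The value for the replicates 3 was the highest between antibodies, whereas HOXA13 replicate 1 went with HOXD13 replicate 2 (0.46). With a replicate block, 425 sites passed between antibodies, none at the 9 genes, and 0 between wt and 542 (replicates 1 and 2). The causes were not tested. Sites near the calling limit, with pileups of about 20 read ends, cannot be told from absence in shallower libraries.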
